A study of Mus musculus with 2 samples.

Results

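Pmel, Dct, Mlana, Tyrp1 and Tyr are 5 genes that pigment cells transcribe at high level, and their RNA was followed through every class of cell in a single-cell RNA-seq study of tumour-infiltrating immune cells from C57BL/6 mice. The genes were taken by symbol from the 31053 genes of the count matrices, and all 5 were found. The first library is labelled Ythdf2 cKO (Ythdf2 encodes a protein that binds N6-methyladenosine in mRNA, and the Cre driver of the knockout is not given in the sources used here), and the second is labelled WT. In both, tumours were digested, red cells were lysed, CD45+ cells were sorted, and droplets were sequenced from the 5′ end of the RNA on the 10x Genomics platform. Neither the tumour line nor the number, pooling, sex or age of the mice was stated in the labels used here.

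There was 1 library per genotype, so no test between genotypes was possible and every interval below is a 95% interval that covers counting error only. The cKO library held 11398 barcodes with a median of 7404 unique molecular identifiers (UMIs, a count of captured RNA molecules), and the WT library held 14404 barcodes with a median of 4760. After filters on genes, mitochondrial RNA and doublets, 9086 cKO cells and 10992 WT cells were kept. Cells were clustered without the 5 genes and without other pigment-cell genes, and clusters were named from other markers. Lymphoid cells below are the pooled B, NK, CD8 T, regulatory T, gamma delta T and other T-like cells, 5051 in the cKO library and 4893 in the WT library. Ythdf2 RNA was higher, not lower, in the library labelled cKO. It averaged 420.8 CPM (UMIs per 1000000 UMIs of the class) in cKO macrophage-like cells and 81.6 CPM in WT ones. It had 408.8 CPM in cKO and 52.0 CPM in WT monocyte-like cells, and 64.0 CPM in cKO and 54.5 CPM in WT lymphoid cells. Counts from the 5′ end do not show which part of the gene was deleted, so they do not settle the labels. The genotypes are therefore given as the libraries labelled cKO and WT, and any direction between them carries that doubt.

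Melanin is made inside melanosomes, organelles of the lysosome family, from tyrosine. Tyr encodes tyrosinase, which catalyses the rate-limiting oxidation of tyrosine. Dct (dopachrome tautomerase, also called Tyrp2) and Tyrp1 encode related melanosomal enzymes that act on later intermediates. Pmel encodes the protein whose fragments form the fibrils on which melanin is laid down, and Mlana (Melan-A or MART-1) encodes a small melanosomal membrane protein needed for Pmel processing in human cells. Several of these proteins are antigens for T cells in melanoma. Immune cells are not known to make melanin, and macrophages that have taken up pigment are known as melanophages.

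All 5 genes are protein coding, and they lie on 5 chromosomes, so that none shares a promoter or a neighbour with another. On GRCm38, Pmel (ENSMUSG00000025359) lies at chr10:128704195-128720238 on the plus strand. Dct (ENSMUSG00000022129) lies at chr14:118012790-118052244 on the minus strand. Mlana (ENSMUSG00000024806) lies at chr19:29697824-29708634 on the plus strand. Tyrp1 (ENSMUSG00000005994) lies at chr4:80834123-80851719 on the plus strand, and Tyr (ENSMUSG00000004651) at chr7:87424771-87493512 on the minus strand.

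As background, the promoters of the 3 enzymes are shown, from 250 bases before to 50 bases after the RefSeq start (GRCm38.p6). Their part in the values below was not tested. The table of promoters used here had an entry for Dct, Tyrp1 and Tyr, which is 3 of the 5 genes. The windows are chr14:118052197-118052496 on the minus strand for Dct, chr4:80833963-80834262 on the plus strand for Tyrp1 and chr7:87493463-87493762 on the minus strand for Tyr. Each runs 5′ to 3′ along the gene, and capitals mark the core of the M-box (TCATGTG, or CACATGA on the other strand), an E-box variant that the transcription factor Mitf is known to bind in pigment genes.
Dct: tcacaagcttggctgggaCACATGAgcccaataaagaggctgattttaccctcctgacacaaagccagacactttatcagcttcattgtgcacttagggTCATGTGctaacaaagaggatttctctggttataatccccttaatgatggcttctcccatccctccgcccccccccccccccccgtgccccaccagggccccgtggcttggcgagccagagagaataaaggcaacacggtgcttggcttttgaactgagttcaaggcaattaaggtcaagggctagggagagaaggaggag
Tyrp1: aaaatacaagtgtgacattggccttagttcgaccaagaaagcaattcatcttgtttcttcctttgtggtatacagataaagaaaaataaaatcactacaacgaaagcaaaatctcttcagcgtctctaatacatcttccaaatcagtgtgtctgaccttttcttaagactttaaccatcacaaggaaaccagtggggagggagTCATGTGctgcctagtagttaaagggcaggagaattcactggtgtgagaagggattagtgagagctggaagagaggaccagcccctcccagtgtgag
Tyr: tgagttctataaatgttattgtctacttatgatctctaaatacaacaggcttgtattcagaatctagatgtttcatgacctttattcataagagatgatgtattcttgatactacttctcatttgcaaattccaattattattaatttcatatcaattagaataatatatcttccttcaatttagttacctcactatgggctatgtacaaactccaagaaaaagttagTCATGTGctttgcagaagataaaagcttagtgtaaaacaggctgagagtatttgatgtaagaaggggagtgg
The core stood 151 bases before the start in Dct, with another copy on the opposite strand 232 bases before it. It stood 47 bases before the start in Tyrp1 and 22 bases before it in Tyr. Of 32851 mouse promoter windows of the same length, 1239 (3.77%) held it on either strand. The shorter CATGTG, which lies within it, occurred in 14.15% of all windows, and the E-box CACGTG occurred in 7.15% of all windows and in none of these 3. A match of letters is not a measured site.

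Nearly all RNA of the 5 genes sat in a few barcodes. A cluster whose leading genes included Ptgds, Syt4 and Slc45a2 beside the 5 was called melanocytic-like, with 15 of its 16 fixed markers detected in at least 25% of its cells. It held 13 cKO cells and 142 WT cells, which is 0.143% (0.0762 to 0.245) of kept cKO cells and 1.29% (1.09 to 1.52) of kept WT cells, a share 9.03-fold lower in the cKO library (5.11 to 17.4). These cells held 94.6% of the kept UMIs of the 5 genes in the cKO library and 94.0% in the WT library. Over all barcodes, kept or not, the 5 genes had 27365 UMIs in the cKO library and 190363 in the WT library, or 2.40 per cKO barcode and 13.2 per WT barcode. Of these UMIs, 50% came from 7 cKO barcodes and from 69 WT barcodes.

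Within the melanocytic-like cells the 5 genes stood at close to the same level in both libraries. Their sum was 14230 CPM in cKO cells and 16303 CPM in WT cells, a ratio of 0.873 (0.860 to 0.886). Pmel showed the widest gap, with 4104 CPM in cKO cells against 5653 CPM in WT cells, a ratio of 0.726. For the enzymes, Dct had 5796 CPM in cKO cells and 6360 CPM in WT cells, and Tyrp1 had 2328 and Tyr 520.5 CPM in cKO cells, against 2411 CPM for Tyrp1 and 528.7 CPM for Tyr in WT cells. Mlana had 1483 CPM in cKO cells and 1350 CPM in WT cells. A single cKO cell held 660 of the 2202 Mlana UMIs of the cKO cells. The median over single cells was 1254 CPM in the cKO library and 1199 CPM in the WT library. None of the 5 passed a 1.5-fold difference, where 8.86% of the 8544 genes with at least 10 CPM in either library were at least 1.5-fold lower in cKO melanocytic-like cells.

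Single melanocytic-like cells varied more than the libraries did. The summed UMIs per cell ranged over 676 (lowest), 1500 (median) and 2897 (highest) in the 13 cKO cells and over 52, 966.5 and 2356 in the 142 WT cells. As CPM of the single cell, Dct ranged over 3340, 6014 and 10485 CPM in cKO cells and over 220.3, 6099 and 16680 CPM in WT cells. Tyr ranged over 210.6, 482.3 and 1102 CPM in cKO cells and over 17.6, 519.9 and 1652 CPM in WT cells. For both genes the range of the 13 cKO cells lay within the wider range of the 142 WT cells. All 5 genes were detected together in all 13 cKO cells and in 141 of the 142 WT cells, where Pmel was the gene missing from 1 cell.

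The melanocytic-like cells of both libraries carried immune RNA as well. Ptprc, which encodes the CD45 used for the sort, had a UMI in 92.3% of the 13 cKO cells and in 37.3% of the 142 WT cells. The cKO cells were also deeper, with a median of 120381 UMIs in the cKO library and 61182 in the WT library. Per UMI, Ptprc was still higher in the cKO cells, at 73.4 CPM in cKO and 19.65 CPM in WT cells. C1qa, a macrophage gene, had a UMI in 38.5% of the cKO cells and in 54.9% of the WT cells, at 152.2 CPM in cKO cells and 25.8 CPM in WT cells. Col1a1, a fibroblast gene, had a UMI in 0 of the 13 cKO cells and in 3 of the 142 WT cells. The part of immune RNA in the values of these cells was not tested.

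Outside the tumour cells, the RNA of the 5 genes was found in every large immune class of both libraries, at a far lower level. The sum over the 5 genes was lower in the cKO library in all 12 immune classes of at least 50 cells in each library. In macrophage-like cells it was 26.5 CPM (22.7 to 30.8) in 206 cKO cells and 60.6 CPM (58.3 to 62.9) in 2098 WT cells, which is 2.28-fold lower (1.955 to 2.68). In monocyte-like cells it was 10.1 CPM (9.05 to 11.2) in 2484 cKO cells and 71.3 CPM (67.3 to 75.4) in 2194 WT cells, which is 7.05-fold lower (6.24 to 7.98). This class sat in different clusters: a cluster led by interferon-induced genes such as Cxcl9 held 1222 of its cKO and 307 of its WT cells, while clusters led by Vcan and by Hspa1a held 434 and 274 cKO cells and 811 and 535 WT cells. In cDC2-like cells it was 5.19 CPM (3.62 to 7.22) in 407 cKO cells and 57.6 CPM (50.1 to 65.9) in 364 WT cells, which is 11.1-fold lower (7.74 to 16.4). In lymphoid cells it was 9.06 CPM (8.11 to 10.1) in cKO cells and 106.5 CPM (101.9 to 111.1) in WT cells, which is 11.8-fold lower (10.5 to 13.2). The interval of the macrophage ratio did not overlap those of the other 3 ratios over all cells, but this separation was lost from monocyte-like and lymphoid cells at 16000 to 32000 UMIs, and from all 3 with each cell thinned to 2000 UMIs. The direction held under every alternative tried, but the sizes moved: in macrophage-like cells the log2 ratio of -1.19 became -2.17 with each cell thinned to 2000 UMIs, and in lymphoid cells the log2 ratio of -3.56 became -1.91 among cells with 16000 to 32000 UMIs.

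**Figure D1:**
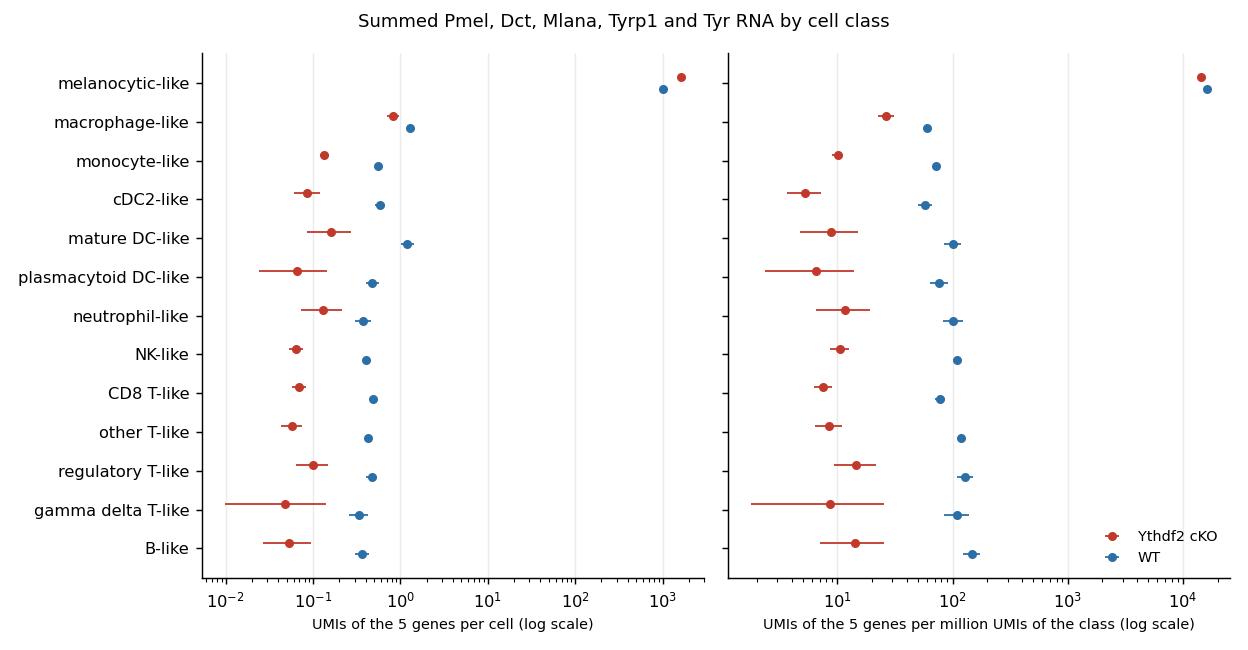
Summed UMIs of Pmel, Dct, Mlana, Tyrp1 and Tyr by cell class, as UMIs per cell (left) and as CPM (right), both on log axes, with cKO above WT in each row. Points are 1 library each and bars are 95% Poisson intervals for counting error. The melanocytic-like cells stand near 14230 CPM in the cKO library and 16303 CPM in the WT library, the 6 lymphoid classes lie between 7.56 and 14.5 CPM in the cKO library and between 77.4 and 146.9 CPM in the WT library, and macrophage-like cells show the narrowest gap between libraries among the immune classes.

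The smaller classes gave the same direction. Mature DC-like cells had 8.84 CPM (4.71 to 15.1) in 81 cKO cells and 100 CPM (84.5 to 117.5) in 122 WT cells. Plasmacytoid DC-like cells had 6.46 CPM (2.37 to 14.1) in 91 cKO cells and 76.9 CPM (64.2 to 91.4) in 270 WT cells. Neutrophil-like cells had 11.7 CPM (6.54 to 19.3) in 114 cKO cells and 101.7 CPM (82.6 to 124) in 261 WT cells. Among the lymphoid classes, CD8 T-like cells stood lowest in both libraries, at 7.56 CPM in cKO cells and 77.4 CPM in WT cells. B-like cells had 14.3 CPM in cKO cells and 146.9 CPM in WT cells, and regulatory T-like cells 14.5 CPM in cKO cells and 129.4 CPM in WT cells. In the cKO library B-like cells held only 11 UMIs of the 5 genes and regulatory T-like cells 24, so that their intervals, 7.12 to 25.5 CPM for B-like and 9.30 to 21.6 CPM for regulatory T-like cells, overlapped that of NK-like cells (8.62 to 12.5 CPM).

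The share of tumour cells was lower in the cKO library as well. The lymphoid sum was 11.8-fold lower there as CPM, 6.47-fold lower per cell and 3.79-fold lower per cell at 16000 to 32000 UMIs, and the macrophage sum 2.28-fold lower as CPM, beside a 9.03-fold lower share of melanocytic-like cells and a 5.505-fold lower number of member UMIs per barcode. With 1 library per genotype, genotype and the number of tumour cells that came through the sort cannot be told apart. Neither can RNA that a cell took up and free RNA in its droplet, since both give the same UMIs.

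Gene by gene, Pmel had the lowest ratio between the libraries in macrophage-like cells, with an interval that lay just apart from that of Dct and overlapped those of Tyrp1, Mlana and Tyr. As log2 ratios of CPM + 1, the intervals of Pmel (-2.17 to -1.15) and Dct (-1.25 to -0.55) overlapped, so Pmel is not set apart from Dct. Pmel had 5.46 CPM (3.80 to 7.595) in cKO macrophage-like cells and 19.1 CPM (17.8 to 20.4) in WT ones, which is 3.50-fold lower (2.50 to 5.06). Dct had 11.6 CPM (9.07 to 14.5) in cKO macrophage-like cells and 22.2 CPM (20.9 to 23.7) in WT ones, which is 1.92-fold lower (1.52 to 2.47). Tyrp1 had 5.15 CPM (3.54 to 7.23) in cKO macrophage-like cells and 11.1 CPM (10.1 to 12.1) in WT ones, which is 2.15-fold lower (1.51 to 3.16). The lowest count was that of Tyr, with 5 UMIs (0.780 CPM) in cKO macrophage-like cells and 73 UMIs (1.64 CPM) in WT ones, and its interval of 0.859 to 6.66-fold lower included no difference. For Mlana the level was 3.59 CPM (2.28 to 5.39) in cKO macrophage-like cells and 6.53 CPM (5.80 to 7.32) in WT ones, which is 1.82-fold lower (1.19 to 2.91). Per cell the ratio of Mlana was 0.805 (0.502 to 1.23), an interval that includes no difference. The 3 genes with at least 10 CPM in either library (Pmel, Dct and Tyrp1) were all at least 1.5-fold lower in cKO macrophage-like cells, on the log2(CPM + 1) scale, where 3.5% of the 8083 genes tested were. Dct had at least 10 CPM in both libraries, but Pmel and Tyrp1 passed the minimum through the WT library alone, so that count is a description.

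In monocyte-like cells the differences were larger for each gene than in macrophage-like cells, with intervals that overlapped for Tyr and Mlana. Pmel had 2.68 CPM (2.15 to 3.29) in cKO monocyte-like cells and 22.5 CPM (20.3 to 24.9) in WT ones, which is 8.42-fold lower (6.67 to 10.7). Dct had 3.55 CPM (2.94 to 4.25) in cKO monocyte-like cells and 28.7 CPM (26.2 to 31.4) in WT ones, which is 8.10-fold lower (6.61 to 9.99). Tyrp1 had 2.08 CPM (1.62 to 2.63) in cKO monocyte-like cells and 12.4 CPM (10.8 to 14.2) in WT ones, which is 5.97-fold lower (4.53 to 7.95). Tyr had 17 UMIs in cKO and 39 UMIs in WT monocyte-like cells, which as CPM is 4.5-fold lower (2.49 to 8.48), and Mlana, with 1.29 CPM in cKO and 5.31 CPM in WT cells, was 4.11-fold lower (2.82 to 6.05). The same 3 genes had at least 10 CPM in either library, and all 3 were at least 1.5-fold lower in cKO monocyte-like cells, where 2.83% of 7273 genes were. Each of the 3 passed the minimum through the WT library alone, which fixed the direction, so nothing is read from the count.

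cDC2-like cells, the dendritic cells marked by Cd209a, held only 35 UMIs of the 5 genes in the cKO library and 212 in the WT library. Pmel had 8 UMIs (1.19 CPM) in cKO and 70 UMIs (19.0 CPM) in WT cDC2-like cells, which is 16.04-fold lower (7.71 to 38.6). Dct had 15 UMIs (2.22 CPM) in cKO and 80 UMIs (21.8 CPM) in WT cDC2-like cells, which is 9.78-fold lower (5.59 to 18.3). Pmel and Dct were the 2 genes with at least 10 CPM in either library and both were at least 1.5-fold lower in the cKO library, where 3.07% of 7676 genes were. Both passed the minimum through the WT library alone, and nothing is read from that count. The 2 UMIs of Tyr in cKO cells stand below the 3 UMIs taken as the detection limit.

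In lymphoid cells each gene was lower in the cKO library by a wider margin than in monocyte-like cells. The intervals of the 2 classes overlapped for Pmel, Tyr and Mlana. Among cells with 16000 to 32000 UMIs, the intervals of the sum per cell overlapped as well. There the sum was 3.38-fold lower (2.45 to 4.60) in cKO monocyte-like cells and 3.79-fold lower (2.01 to 7.06) in cKO lymphoid cells. Dct had 3.68 CPM (3.09 to 4.36) in cKO and 44.4 CPM (41.5 to 47.5) in WT lymphoid cells, which is 12.1-fold lower (10.1 to 14.6). Tyrp1 had 1.36 CPM (1.01 to 1.80) in cKO and 17.8 CPM (15.9 to 19.7) in WT lymphoid cells, which is 13.02-fold lower (9.66 to 17.9). Tyr had 16 UMIs in cKO and 86 UMIs in WT lymphoid cells, 10.1-fold lower as CPM (5.87 to 18.4). Pmel had 2.51 CPM in cKO and 33.1 CPM in WT lymphoid cells, 13.2-fold lower (10.6 to 16.6). Mlana showed the narrowest gap, with 1.06 CPM in cKO and 6.81 CPM in WT lymphoid cells, 6.40-fold lower (4.45 to 9.39). Pmel, Dct and Tyrp1 passed the 10 CPM minimum and all 3 were at least 1.5-fold lower in cKO lymphoid cells, where 2.67% of 7913 genes were. Here too all 3 passed through the WT library alone, and the count is no support. The median log2 difference over all genes tested was 0.00 in macrophage-like, -0.08 in monocyte-like, -0.04 in cDC2-like and -0.02 in lymphoid cells, beside a median over the 5 genes of -0.89 in macrophage-like, -2.12 in monocyte-like, -2.44 in cDC2-like and -2.99 in lymphoid cells.

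**Figure D2:**
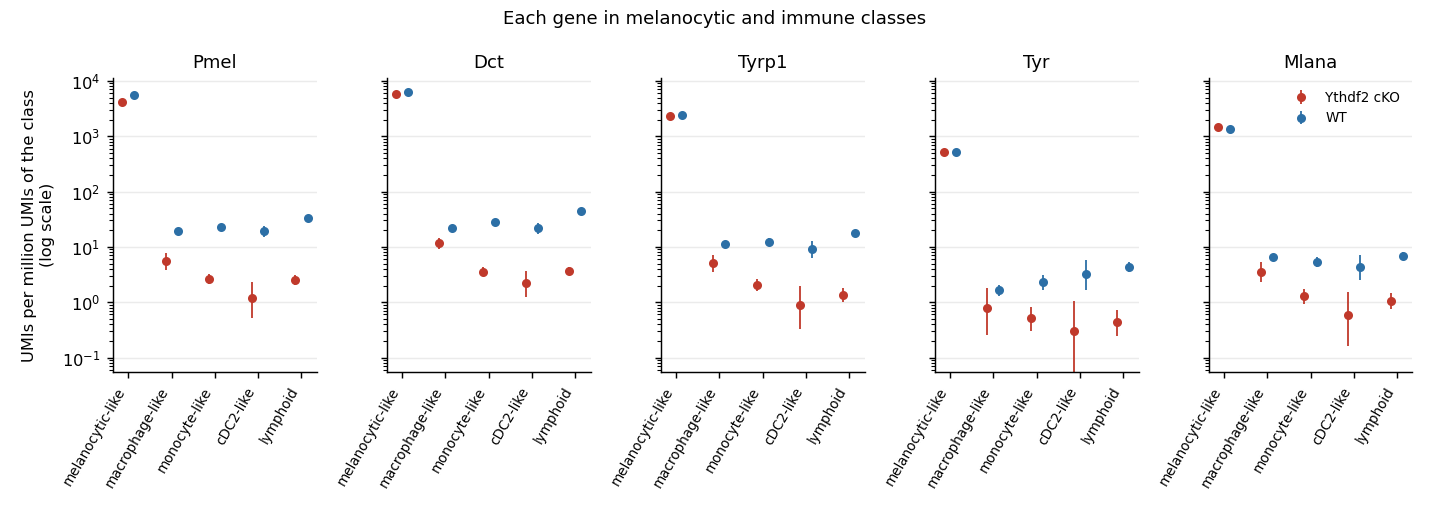
Level of each gene in CPM (log axis) in melanocytic-like, macrophage-like, monocyte-like, cDC2-like and lymphoid cells, cKO left of WT in each pair. Points are 1 library each and bars are 95% Poisson intervals. In immune classes each gene is lower in the cKO library, whereas in melanocytic-like cells the pairs lie within 1.38-fold of each other.

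Counted per cell in place of per UMI, the order of the classes changed. Macrophage-like cells held 0.825 UMIs of the 5 genes per cKO cell and 1.29 per WT cell, more than monocyte-like cells (0.135 per cKO cell and 0.551 per WT cell), cDC2-like cells (0.0860 per cKO cell and 0.582 per WT cell) or lymphoid cells (0.0657 per cKO cell and 0.425 per WT cell). Mature DC-like cells, which stood below macrophages in the cKO library at 0.160 per cell, came close to them in the WT library at 1.20 per cell. The number per macrophage-like cell was 12.6 times the number per lymphoid cell (10.4 to 15.1) in the cKO library and 3.03 times (2.86 to 3.21) in the WT library. As CPM, the level in macrophage-like cells was 2.93 times that in lymphoid cells (2.42 to 3.53) in the cKO library but 0.569 times (0.537 to 0.603) in the WT library. Per cell, macrophage-like cells were 1.56-fold lower in the cKO library (1.34 to 1.83) and lymphoid cells 6.47-fold lower (5.76 to 7.28). The median macrophage-like cell had 26144 UMIs in the cKO library and 18789 in the WT library, and the median lymphoid cell 6101 in the cKO library and 3335 in the WT library. Over all cells of the WT library no order of the 2 classes follows, since it turns with the denominator; in the cKO library both denominators put macrophage-like cells higher.

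As a difference, macrophage-like cells held 0.760 more UMIs per cell than lymphoid cells (0.635 to 0.884, a normal approximation) in the cKO library and 0.862 more (0.810 to 0.914) in the WT library. The intervals of these excesses overlapped, while the levels in lymphoid cells did not. A subtraction does not correct for the greater depth of macrophage-like cells. In monocyte-like cells the excess over lymphoid cells was 0.0695 UMIs per cell (0.0534 to 0.0856) in the cKO library and 0.126 (0.0895 to 0.162) in the WT library. In cDC2-like cells it was 0.0203 (-0.00909 to 0.0496) in the cKO library, an interval that includes 0, and 0.157 (0.0768 to 0.238) in the WT library.

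Cells of like depth gave a closer comparison. Among cells with 16000 to 32000 UMIs, macrophage-like cells held 0.687 UMIs of the 5 genes per cell in 67 cKO cells and 1.25 in 856 WT cells, which is 1.82-fold lower (1.36 to 2.50). Monocyte-like cells of that depth held 0.278 per cell in 482 cKO cells and 0.938 in 65 WT cells, which is 3.38-fold lower (2.45 to 4.60). The lymphoid cells held 0.129 per cell in 202 cKO cells and 0.488 in 41 WT cells, which is 3.79-fold lower (2.01 to 7.06). The cycling CD8 T-like cluster made up 100 of these cKO and 32 of these WT lymphoid cells, so the class differs in make-up at this depth. At this depth, macrophage-like cells held 5.33 times the number in lymphoid cells (3.23 to 8.99) in the cKO library and 2.57 times (1.65 to 4.22) in the WT library. Monocyte-like cells held 2.16 times (1.41 to 3.43) in the cKO library and 1.92 times (1.15 to 3.37) in the WT library, and cDC2-like cells 0.846 times (0.424 to 1.64) in the cKO library and 1.38 times (0.748 to 2.60) in the WT library. For the macrophages and monocytes the intervals of the ratio to lymphoid cells exclude 1 in both libraries, and for the cDC2-like cells they include 1 in both.

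**Figure D3:**
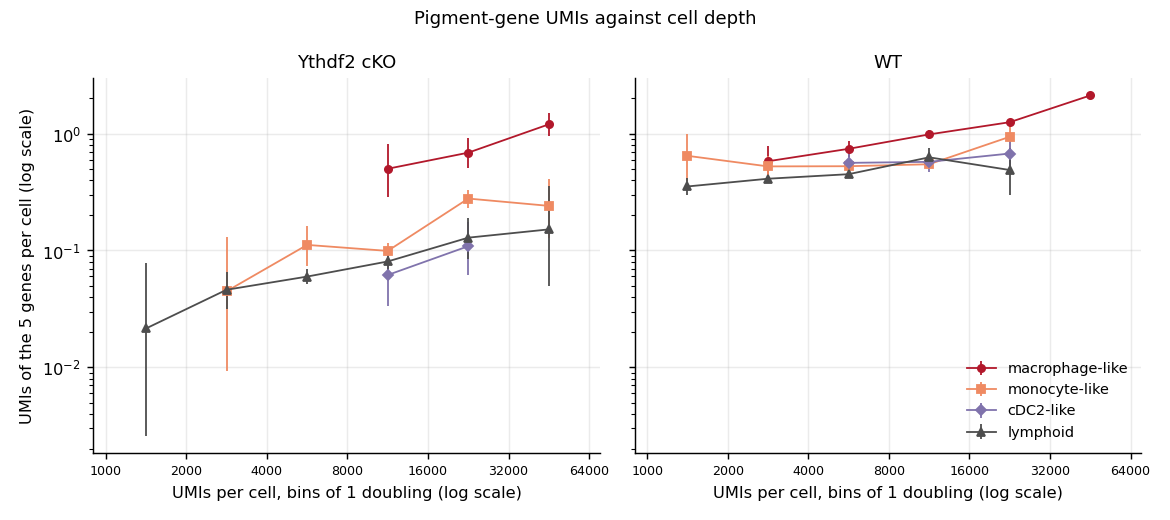
UMIs of the 5 genes per cell (log axis) against the depth of the cell in bins of 1 doubling (log axis) for 4 groups of cells, cKO library left and WT library right, with 95% Poisson intervals; 1 bin with no UMI is not drawn. In the cKO library the macrophage-like cells lie above the other groups at each depth shown, and in the WT library their intervals lie above those of lymphoid cells in each bin from 4000 to 32000 UMIs, reaching 2.12 UMIs per cell between 32000 and 64000 UMIs.

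The number of UMIs grew with depth but by less than depth itself in WT lymphoid cells. These held 0.353 UMIs per cell at 1000 to 2000 UMIs, 0.411 at 2000 to 4000, 0.449 at 4000 to 8000 and 0.626 at 8000 to 16000, with 0.488 in the 41 cells at 16000 to 32000. WT macrophage-like cells held 0.580 at 2000 to 4000 UMIs, 0.740 at 4000 to 8000, 0.984 at 8000 to 16000 and 1.25 at 16000 to 32000. The count per WT lymphoid cell less than doubled from the first of these bins to the bin at 8000 to 16000 UMIs. A deep lymphoid cluster, the cycling CD8 T-like cells with a median of 18580 UMIs in the cKO library and 11904 in the WT library, held 0.134 UMIs per cell in cKO cells and 0.654 in WT cells, below the macrophage-like cells of the same library.

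The share of cells with any UMI of the 5 genes followed the counts. It was 36.4% (29.8 to 43.4) of cKO and 62.3% (60.2 to 64.4) of WT macrophage-like cells, and 9.66% (8.53 to 10.9) of cKO and 37.1% (35.1 to 39.2) of WT monocyte-like cells. In lymphoid cells, which are not known to transcribe these genes, it was 5.48% (4.87 to 6.15) in the cKO library and 29.8% (28.5 to 31.1) in the WT library. With every cell thinned to 2000 UMIs, the share was 3.42% (1.38 to 6.91) of 205 cKO macrophage-like cells and 13.4% (12.0 to 14.98) of 2076 WT ones, against 1.99% (1.62 to 2.42) of 4919 cKO lymphoid cells and 18.7% (17.6 to 19.9) of 4416 WT ones. Thinning left out 1 cKO and 22 WT macrophage-like cells and 132 cKO and 477 WT lymphoid cells. In the WT library, the thinned share of macrophage-like cells lay below that of lymphoid cells, whereas cells compared within a depth bin gave the other order, and no order of these shares is read there. In the cKO library the intervals of the thinned shares overlapped.

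The number of UMIs varied between single macrophage-like cells, and the evenness of their spread was not tested. Cells with at least 3 UMIs of the 5 genes made up 10.2% (6.42 to 15.2) of cKO and 13.7% (12.2 to 15.2) of WT macrophage-like cells, against 0.198% (0.0950 to 0.364) of cKO and 2.58% (2.15 to 3.06) of WT lymphoid cells. The highest macrophage-like cell had 14 UMIs in the cKO library and 101 in the WT library. With 10 or more UMIs there were 2 cKO and 6 WT macrophage-like cells, which held 15.9% of the class's UMIs in the cKO library and 8.22% in the WT library. Without them the mean was 0.701 UMIs per cKO cell and 1.19 per WT cell. At least 2 of the 5 genes were found together in 15.5% of cKO and 24.6% of WT macrophage-like cells, and in 0.436% of cKO and 5.60% of WT lymphoid cells. In the cKO library 2 or more of the genes were thus seen together in 32 of 206 macrophage-like cells and in 22 of 5051 lymphoid cells. These shares are at full depth, and macrophage-like cells were deeper than lymphoid cells in both libraries. The differences between the classes are therefore not corrected for depth.

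**Figure D4:**
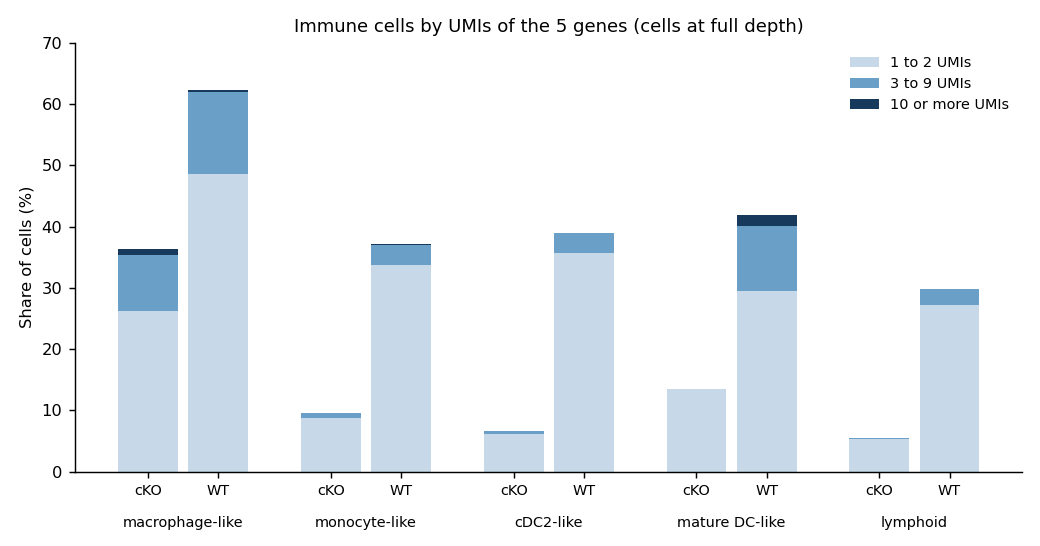
Share of immune cells with 1 to 2, 3 to 9 and 10 or more UMIs of the 5 genes at full depth, cKO left of WT in each class; 1 library per bar. Cells with 3 or more UMIs make up 10.2% of cKO and 13.7% of WT macrophage-like cells, and 0.198% of cKO and 2.58% of WT lymphoid cells.

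Both macrophage-like clusters carried the RNA. The non-cycling cluster, led by Pf4, C1qa and Ms4a7, held 0.773 UMIs per cell in 172 cKO cells and 1.27 in 1522 WT cells. The cycling cluster, led by mitotic genes such as Tpx2 and Birc5, held 1.09 per cell in 34 cKO cells and 1.32 in 576 WT cells. A single cKO cell with 13 UMIs held 35.1% of the UMIs of the cycling cluster. Without cells of 10 or more UMIs the cycling cluster held 0.727 per cKO cell and the non-cycling one 0.696. Macrophage-like cells of both libraries also carried T cell RNA, with a UMI of Cd3d, Cd3e or Cd3g in 64.1% of cKO and 54.1% of WT cells. Of the 16 non-member melanocytic markers, 15 had UMIs in cKO and all 16 in WT macrophage-like cells, and their sum was 117 CPM in cKO and 166.7 CPM in WT cells. Most of it came from Syngr1 (66.5 CPM in cKO and 100.5 CPM in WT cells) and Mitf (30.4 CPM in cKO and 35.5 CPM in WT cells), which macrophages also express, while Sox10 had 0.624 CPM in cKO and 0.897 CPM in WT cells and Gpr143 had none in cKO and 0.179 CPM in WT cells. Their part in the values of the 5 genes was not tested.

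The make-up of the signal was close to that of the tumour cells, but not identical. In WT melanocytic-like cells Pmel made up 34.7%, Dct 39.0%, Tyrp1 14.8%, Mlana 8.28% and Tyr 3.24% of the UMIs of the 5 genes. In WT macrophage-like cells Pmel made up 31.5% (29.8 to 33.3), Dct 36.7% (34.9 to 38.5), Tyrp1 18.3% (16.9 to 19.8), Mlana 10.8% (9.63 to 12.0) and Tyr 2.70% (2.12 to 3.39). In WT lymphoid cells Pmel made up 31.1% (29.1 to 33.1), Dct 41.7% (39.6 to 43.9), Tyrp1 16.7% (15.1 to 18.4), Mlana 6.39% (5.38 to 7.53) and Tyr 4.14% (3.32 to 5.08). Mlana thus took a larger share in WT macrophage-like than in WT lymphoid cells and Dct and Tyr a smaller one, with intervals that did not overlap for Mlana and Dct. Against the tumour cells, Mlana and Tyrp1 took a larger share in WT macrophage-like cells and Pmel and Dct a smaller one, and the cause was not tested. The intervals of these genes in WT macrophage-like cells left out the tumour cells' share, while that of Tyr held it. In WT lymphoid cells, with 2080 UMIs, the intervals of all 5 genes left it out.

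The cKO library had fewer UMIs and wider intervals. In cKO melanocytic-like cells Pmel made up 28.8%, Dct 40.7%, Tyrp1 16.4%, Mlana 10.4% and Tyr 3.66%. In cKO macrophage-like cells, with 170 UMIs, Pmel made up 20.6% (14.8 to 27.5), the one gene whose interval left out the tumour cells' share, and Dct made up 43.5% (36.0 to 51.3). In cKO lymphoid cells, with 332 UMIs, Pmel made up 27.7% (23.0 to 32.9) and Dct 40.7% (35.3 to 46.2), and the interval of each of the 5 genes held the tumour cells' share. Over the 12 immune classes of at least 50 cells, the interval held the tumour cells' share of Pmel in 11 cKO and 8 WT classes, of Dct in 11 cKO and 9 WT classes, and of Mlana in 12 cKO and 9 WT classes. For Tyrp1 it did so in 12 cKO and 10 WT classes, and for Tyr in 12 cKO and 11 WT classes. Several cKO classes held few UMIs of the 5 genes, such as 3 in gamma delta T-like and 6 in plasmacytoid DC-like cells. Their intervals hold almost any share (0.840 to 90.6% for Pmel in gamma delta T-like cells), so the cKO counts do not measure likeness to the tumour cells.

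**Figure D5:**
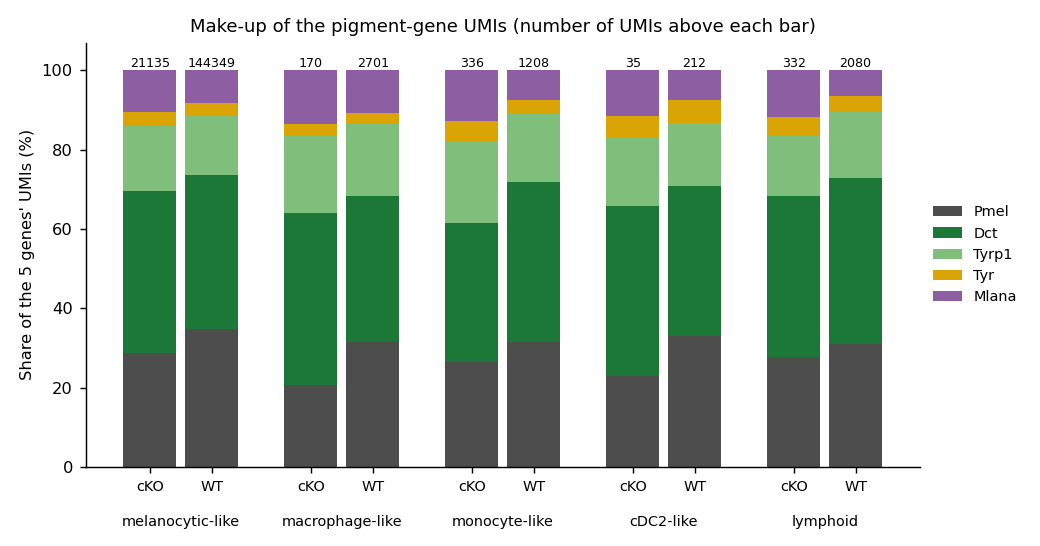
Share of each gene among the UMIs of the 5 genes in 5 groups of cells, cKO left of WT, with the number of UMIs above each bar. Dct and Pmel make up most of every bar, Tyr is the smallest part, and the Mlana part is wider in WT macrophage-like cells (10.8%) than in WT lymphoid cells (6.39%).

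Over 24 points (12 immune classes in 2 libraries), log2(CPM + 1) of each gene followed that of the sum of the 5, with Pearson's r of 0.99 for Pmel, 0.99 for Dct, 0.98 for Tyrp1, 0.90 for Mlana and 0.88 for Tyr. The points share 2 libraries and each gene is part of the sum, so these are descriptions only. Among the 10305 other genes with at least 500 UMIs, the profile most like the sum was that of Ptgds (r of 0.94), which encodes a prostaglandin D synthase that the melanocytic-like cells expressed at 2721 CPM in the cKO library and 2409 CPM in the WT library. Ptgds had 1.5 CPM in cKO and 12.6 CPM in WT lymphoid cells, and 4.68 CPM in cKO and 11.1 CPM in WT macrophage-like cells. Trpm1, a channel gene of melanocytes, was also among the 10 (r of 0.78), with 1.42 CPM in cKO and 5.84 CPM in WT lymphoid cells. Rpl29, a ribosomal protein gene (r of 0.92), had 162 CPM in cKO and 1292 CPM in WT lymphoid cells, but 1083 CPM in cKO and 1270 CPM in WT melanocytic-like cells. Pf4 (r of 0.67), a chemokine gene of macrophages, had 708.9 CPM in cKO and 1937 CPM in WT macrophage-like cells, and 4.77 CPM in cKO and 65.5 CPM in WT lymphoid cells. Gm7324, Cdk5rap1, Mid1, Dusp7 and Fcrls were also among the 10.

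Other genes of the tumour cells moved less evenly. Of the 10 highest genes of melanocytic-like cells that were in neither gene list and had under 1/50 of that level in lymphoid cells, Serpinh1, which encodes a collagen chaperone, had 5 UMIs in cKO and 66 in WT lymphoid cells, 13.6-fold lower per cell. Cck was 12.4-fold, Car6 5.78-fold, Syt4 5.74-fold and Sparcl1 5.42-fold lower per cKO lymphoid cell than per WT lymphoid cell. Ldhb was 3.11-fold, Eps8 2.86-fold and Aebp1 1.72-fold lower, while Mgll, at 1.07-fold lower, was nearly level per cell. Per UMI Mgll was lower, with 12.2 CPM in cKO and 23.7 CPM in WT lymphoid cells. The summed 5 pigment genes were 6.47-fold lower per lymphoid cell (5.76 to 7.28). Per cell, RNA of other immune classes gave no single direction. The C1q genes, which macrophages make, had 0.295 UMIs per cKO lymphoid cell and 0.964 per WT lymphoid cell, beside 206 cKO and 2098 WT macrophage-like cells. S100a8 and S100a9, which neutrophils make, had 0.0242 UMIs per cKO lymphoid cell and 0.0374 per WT lymphoid cell, and Cd79a and Cd79b, which B cells make, had 0.631 per cKO and 0.757 per WT macrophage-like cell. The Cd3 genes were higher per cell in the cKO library, at 0.649 UMIs per cKO and 0.342 per WT monocyte-like cell. As CPM they were close in monocyte-like cells (48.5 in cKO, 44.3 in WT) and higher in cKO macrophage-like cells (429.7 in cKO, 306.9 in WT). The other sets were lower in the cKO library as CPM: C1q (40.6 in cKO, 241.5 in WT) and S100a8 and S100a9 (3.33 in cKO, 9.37 in WT) in lymphoid cells, and Cd79a and Cd79b (20.3 in cKO, 35.6 in WT) in macrophage-like cells.

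Of 48 genes listed for the melanosome and the pigment pathway beside the 5, 47 were in the matrices and 39 had at least 10 CPM in melanocytic-like cells of either library. Of these 39, 3 were at least 1.5-fold higher and 1 lower in cKO melanocytic-like cells, with a median log2 difference of -0.19, beside 7.63% higher and 8.86% lower among all 8544 genes. Cited1, a transcriptional coregulator, had 676.7 CPM in cKO and 293.2 CPM in WT melanocytic-like cells (log2 difference 1.20), and Gpnmb, a melanosomal glycoprotein related to Pmel, had 2586 CPM in cKO and 1558 CPM in WT cells (0.73). Bloc1s1, a subunit of a complex for the biogenesis of lysosome-related organelles, was the other higher one (0.67). Mitf, the transcription factor of pigment genes, was the lower one, with 216.8 CPM in cKO and 349.6 CPM in WT cells (-0.69). The transporter genes Slc24a5, with 538.6 CPM in cKO and 760.6 CPM in WT cells, and Slc45a2, with 387.8 CPM in cKO and 520.7 CPM in WT cells, did not pass 1.5-fold. The same held for Trpm1 (397.9 CPM in cKO and 531.2 CPM in WT cells), Rab38 (433.6 CPM in cKO and 437.2 CPM in WT cells), Cd63 (1629 CPM in cKO and 1714 CPM in WT cells), Lamp1 (352.8 CPM in cKO and 328.6 CPM in WT cells) and Tspan10 (265.3 CPM in cKO and 281.6 CPM in WT cells).

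In macrophage-like cells, 24 of the 47 pathway genes had at least 10 CPM, among them Lamp1 and Cd63 of the lysosome. Of these 24, 1 was at least 1.5-fold lower and 2 higher in the cKO library, beside 3.5% lower and 5.98% higher among all 8083 genes, with a median log2 difference of -0.02, whereas the median over the 5 pigment genes was -0.89. Cd63, a tetraspanin of lysosomes and melanosomes, was the lower one, with 338 CPM in cKO and 535.3 CPM in WT macrophage-like cells, and Rab27a and Bloc1s1 were the higher ones, with log2 differences of 0.67 and 0.74. Gpnmb, which macrophages express themselves, had 176.2 CPM in cKO and 176.4 CPM in WT cells. Rab38, a melanosomal small GTPase with 1.09 CPM in cKO and 3.95 CPM in WT macrophage-like cells, and Slc45a2, with 1.72 CPM in cKO and 1.64 CPM in WT cells, stayed under the minimum. Of 24 listed melanoma and neural crest genes outside pigment synthesis, 4 had at least 10 CPM in macrophage-like cells and 3 of them (Ptgds, Syngr1 and S100a1) were at least 1.5-fold lower in the cKO library. Ptgds, with 4.68 CPM in cKO and 11.1 CPM in WT cells, passed the minimum through the WT library alone. That fixed its direction, so the count is a description. In melanocytic-like cells 16 of the 24 had at least 10 CPM, of which Mcam was at least 1.5-fold higher and Tfap2a, Fabp7 and Gas7 were at least 1.5-fold lower in the cKO library, beside 7.63% higher and 8.86% lower among all genes of these cells. Mcam, with 21.55 CPM in cKO and 9.71 CPM in WT cells, passed the minimum through the cKO library alone, and nothing is read from its call.

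Outside the named classes, some droplets of an unnamed cluster were rich in these genes. This cluster, with low Ptprc, a median of 1193 UMIs per cell and C1qa and Pf4 among its leading genes, had 336.1 CPM (285.3 to 393.4) in 223 cKO cells and 2331 CPM (2240 to 2425) in 472 WT cells. Its UMIs sat in few cells: 5 cKO and 24 WT cells with 10 or more UMIs held 62.6% of the cluster's UMIs of the 5 genes in the cKO library and 88.5% in the WT library. A second unnamed cluster, with T cell and myeloid RNA in the same droplets, had 12.4 CPM (10.4 to 14.7) in 393 cKO cells and 47.9 CPM (35.1 to 63.9) in 71 WT cells. It was not rich in these genes. The immune classes outside macrophages ran from 5.19 to 14.5 CPM in the cKO library and from 57.6 to 146.9 CPM in the WT library.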

How the data were processed

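The deposited matrices hold UMI counts per gene and barcode, made with Cell Ranger 5.0.1 against mm10, per the submitters' processing notes, which also name Seurat 4.0.4; per the file headers the matrices come from cellranger 5.0.0. No pooling or correction for free RNA is given in the sources used here. The 5′ UMI counts were not divided by gene length, so levels are compared within a gene or over the fixed sum of the 5.

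Barcodes with under 200 genes or over 10% mitochondrial UMIs were left out (1533 cKO, 2225 WT). Scrublet's automatic threshold marked 1 cKO and 5 WT barcodes and was taken as failed; the top scores were removed at 0.8% per 1000 cells (779 cKO, 1187 WT). Clustering used scanpy 1.11.5 (2000 variable genes, 30 components, 15 neighbours, Leiden resolution 1) on both libraries, without the 5 genes, the pathway list, the melanocytic markers, Ythdf2, sex-linked genes, mitochondrial and ribosomal genes and antigen receptor segments. Cluster names were rebuilt here and may differ from the study's. The libraries shared 43 barcode sequences. The unnamed share was 6.78% of cKO and 4.94% of WT cells.

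Counts were summed per class and library. Intervals are exact (Poisson for UMIs, Clopper-Pearson for shares, conditional binomial for ratios; a normal approximation for differences) at 95%, and the detection limit is 3 UMIs. Fold calls over all genes used log2(CPM + 1), at least 10 CPM in either library and 1.5-fold; the code was tested on simulated data. No p-value is given, since each group is 1 library.

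Beside the 5 genes, the text names the 10 genes most like their sum, the 10 highest other genes of melanocytic-like cells with under 1/50 of that level in lymphoid cells, and the 10 highest pathway genes; further markers and list members were named after their values were seen. Some genes that this rule picks are not reported here. The members and lists were chosen with earlier results of these data known. Positions are from GENCODE vM21 and promoters from RefSeq.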

Additional observations from a re-analysis of the deposited data

Results flagged for a closer look

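The barcodes that the filters left out, which enter no comparison of cell classes above, held a strong signal of the 5 genes. In the 1533 cKO barcodes left out it was 1063 CPM (1033 to 1093), or 3.17 UMIs per barcode, and in the 2225 WT barcodes 2260 CPM (2224 to 2297), or 6.75 UMIs per barcode. At least 10 UMIs were found in 25 of the cKO and 136 of the WT barcodes. Their median mitochondrial share was 28.2% in the cKO library and 26.8% in the WT library, and their median depth 1614 UMIs in the cKO library and 1709 in the WT library. Dct made up 49.8% (48.3 to 51.2) of the signal in the cKO library and 54.6% (53.8 to 55.4) in the WT library, above its 40.7% in cKO and 39.0% in WT melanocytic-like cells, and Mlana made up 6.69% in the cKO library and 5.43% in the WT library, below its 10.4% in cKO and 8.28% in WT melanocytic-like cells. What these barcodes held was not tested.

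Barcodes removed as doublets differed between the libraries. The 779 of the cKO library held 0.217 UMIs of the 5 genes per barcode and none reached 10, while the 1187 of the WT library held 18.4 per barcode and 27 reached 100.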

How the results depend on the processing

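No paired analysis was possible because each genotype is 1 library, and for the same reason no replicate could be left out. The values below are log2 ratios. Over the ratios of the sum between libraries, of the share of melanocytic-like cells and of macrophage-like to lymphoid cells, 54 of 81 alternative values stayed within the counting interval of the value given, 26 moved and 1 changed sign. The ratio in macrophage-like cells (-1.19) became -0.79 with at least 500 genes per barcode, -1.45 at Leiden resolution 0.5, -2.17 with cells thinned to 2000 UMIs and -1.5 without barcodes with UMIs of 2 or more melanocytic markers. With marker gates in place of clusters the ratio became -0.63 in macrophage-like, -1.69 in monocyte-like and -1.61 in lymphoid cells, and the ratio of melanocytic shares (-3.17) became -5.37; these gates admitted melanocytic barcodes with immune UMIs to the immune classes. Gates that set such barcodes apart, chosen after seeing the data, gave -1.95 in macrophage-like cells. Cells of 16000 to 32000 UMIs, also chosen after seeing the data, gave -0.94 in macrophage-like, -1.75 in monocyte-like (main value -2.82), -2.66 in cDC2-like (-3.47) and -1.91 in lymphoid cells (-3.56). Weighting every cell equally gave -3.07 in monocyte-like cells. The ratio of macrophage-like to lymphoid cells per cell, 3.65 in the cKO library, became 3.34 with doublets kept, 2.08 with marker gates, 2.15 with melanocytic barcodes set apart, 2.89 without barcodes of 2 or more melanocytic markers, 2.42 at 16000 to 32000 UMIs and 0.66 thinned. The same ratio, 1.6 in the WT library, became 1.51 at Leiden resolution 2, 1.75 with marker gates, 1.33 with melanocytic barcodes set apart, 1.16 without barcodes of 2 or more melanocytic markers, 1.5 without cells of 10 or more UMIs of the 5 genes (chosen after seeing the data), 1.36 at 16000 to 32000 UMIs and -0.6 thinned, which is the change of sign. Where no construction of the alternative is given, the cause was not tested. For the single genes in macrophage-like and monocyte-like cells every log2 ratio stayed below 0 in all 9 alternatives, from -2.95 to -0.11. The interval of Mlana in macrophage-like cells (-1.39 to -0.10) came to include 0 with at least 500 genes (-1.08 to 0.25), at most 5% mitochondrial UMIs (-1.30 to 0.17), doublets kept (-1.33 to 0.04) and without barcodes of 2 or more melanocytic markers (-1.51 to 0.53). Depth limits Tyr most, with 5 UMIs in cKO macrophage-like cells.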
